A study of Mus musculus with 4 samples.

Results

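The proteasome genes were examined in RNA-seq libraries of mouse regulatory T cells. Members were chosen by name: a row of the count tables was taken when GENCODE calls its gene protein-coding and its symbol is Psm followed by a letter from a to g and a digit. This gave 50 genes of 50600 rows, 21764 of them protein-coding. By role, 7 encode the core alpha ring, 4 the non-catalytic part of the core beta ring, 3 the constitutive catalytic subunits, 3 the immunoproteasome catalytic subunits and 2 tissue-restricted core variants. The regulatory particle holds 6 ATPases and 3 other subunits of its base and 8 subunits of its lid. The remainder were 3 assembly chaperones of the regulatory particle, 4 of the core, 5 activators or inhibitors, the gene Psme2b and Psmc3ip. Psmc3ip matches only by name, since it encodes a cofactor of meiotic recombination and not a proteasome subunit.

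The 4 libraries form 1 group, so there is no treated or control arm. All were made from primary regulatory T cells, a CD4+ lineage that dampens immune reactions, of mouse strain C57BL/6NJ, with no genetic change or treatment named in the labels. Age is unknown and sex was not collected. A protocol for CD4+ T cell differentiation is linked, the headers of the files name outputs as activated at 24 h, and the assay is called total RNA-seq although the linked library protocol is for polyA+ RNA. Each library has its own biosample identifier under 1 shared donor identifier, and no label ties a library to an animal or culture of its own, so a p-value here reflects no more than the spread among these 4 libraries, which may be technical.

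The proteasome is the protease that degrades ubiquitin-tagged proteins. Its core is a barrel of stacked rings: alpha subunits form the outer rings and gate the entrance, and beta subunits form the inner rings, of which Psmb5, Psmb6 and Psmb7 carry the active sites. The regulatory particle caps the barrel; its lid removes ubiquitin and the ATPases of its base unfold the substrate and thread it in. In lymphocytes and in cells exposed to interferon gamma, Psmb8, Psmb9 and Psmb10 can take the places of Psmb5, Psmb6 and Psmb7 in newly built cores, which are then called immunoproteasomes and favour peptides that suit MHC class I.

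The libraries held 38590127 to 93035969 fragments assigned to genes, and the 50 proteasome genes took 0.840 to 0.927% of them. Levels are given as TPM, abundance per length scaled to a common total, computed from the counts and each gene's exon union length unless another length is named. Values with principal transcript lengths keep the exon union length where that is shorter, and are scaled to a total over protein-coding genes only. Replicate 1 stood apart on the exon union scale: its share of TPM in protein-coding genes was 88.2%. The remaining libraries had 95.6 to 96.6%. All 5 regulatory T cell markers and all 5 T cell markers reached a mean of at least 1 TPM, as did 47.7% of protein-coding rows. The regulatory T cell markers ran from Ikzf2 at 4.32 TPM to Il2ra at 702 TPM. Foxp3, the regulatory T cell lineage factor, was at 101, 93.0, 125 and 115 TPM in replicates 1 to 4. Of 16 markers of CD8 T, B, myeloid and natural killer cells, 5 reached 1 TPM and 2 were at 0. Their summed level was 22.3 to 31.9 TPM per library, most of it Cd8b1 at 21.8 ± 4.19 TPM (SD, n = 4). In bulk RNA, fewer cells of a type and less RNA per cell cannot be told apart.

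Regulatory sequence upstream of the catalytic genes is shown because these genes form the comparison below between subunits that replace each other. The sequences are RefSeq windows on GRCm38.p6 that end just before an annotated start, written 5′ to 3′ on the gene's strand. Capitals mark a match to TGACNNNGC, the antioxidant response element bound by Nfe2l1 and related factors, or, in Psmb10, to the E-box CACGTG. The windows are Psmb10 at chr8:105938445-105938642 on the minus strand, Psmb5 at chr14:54617996-54618245 on the minus strand and Psmb6 at chr11:70525107-70525356 on the plus strand. For Psmb10, 52 bases nearest the start lie in an exon of the deposited annotation and were left out.
Psmb10: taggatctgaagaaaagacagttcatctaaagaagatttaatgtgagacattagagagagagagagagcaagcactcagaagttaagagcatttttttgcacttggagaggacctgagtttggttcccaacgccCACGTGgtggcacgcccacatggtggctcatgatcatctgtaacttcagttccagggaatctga
Psmb5: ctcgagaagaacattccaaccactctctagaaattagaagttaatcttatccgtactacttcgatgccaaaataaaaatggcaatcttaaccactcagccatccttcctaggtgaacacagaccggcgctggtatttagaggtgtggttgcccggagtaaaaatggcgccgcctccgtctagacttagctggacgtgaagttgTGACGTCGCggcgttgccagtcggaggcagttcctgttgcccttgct
Psmb6: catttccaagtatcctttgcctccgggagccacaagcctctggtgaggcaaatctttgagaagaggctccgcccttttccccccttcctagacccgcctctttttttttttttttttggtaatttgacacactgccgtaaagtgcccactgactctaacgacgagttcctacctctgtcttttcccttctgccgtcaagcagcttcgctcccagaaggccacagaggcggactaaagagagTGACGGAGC

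The antioxidant response element letters began 47 bases before the RefSeq start in Psmb5 and 9 bases before it in Psmb6, and the shown Psmb10 sequence had no match to them. Windows were kept only within 100 bases of the start of the principal transcript, which left 37 of the 42 members that had one. Those of Psmb8, Psmb9, Psmd13, Psme1 and Psme2b were farther away and were not searched, and Psmb7 had no window. The element was found on either strand in 5 of 37 members, or 13.5%, against 11.01% of 13011 windows over all genes. Besides Psmb5 and Psmb6, the matches were in Psmc6, Psmd9 and Psmd12. The interferon regulatory factor letters, GAAA and a second GAAA with 2 bases of any kind between them, were found in Psmb3, Psmd4 and Psmd9, or 8.11% of members against 2.91% of all windows. TTCNNNGAA, the gamma-activated site, was found in 1 member, Psmg1, or 2.70% against 6.56%. CCAAT was found in 35.1% of members and 36.9% of all windows, TATAAA in 8.11% and 10.9%, and CACGTG in 10.8% and 7.12%. For TATAAA the direction depended on the background: among genes that passed the count filter it was in 8.33% of members and 5.54% of all windows. These are matches of letters, not binding sites.

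The proteasome genes were abundant as a set. A mean of at least 10 TPM was reached by 48 of 50 members, or 96.0%, against 36.2% of protein-coding rows, and at least 100 TPM by 36 members, or 72.0%, against 9.43% of protein-coding rows. The median over the 50 members was 209 TPM, against 0.520 TPM over all protein-coding rows. Among genes that passed the filter on low counts, the median was 218 TPM for 48 members and 27.6 TPM for 11054 protein-coding genes. The 2 members under 10 TPM were Psma8 and Psmb11.

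**Figure D1:**
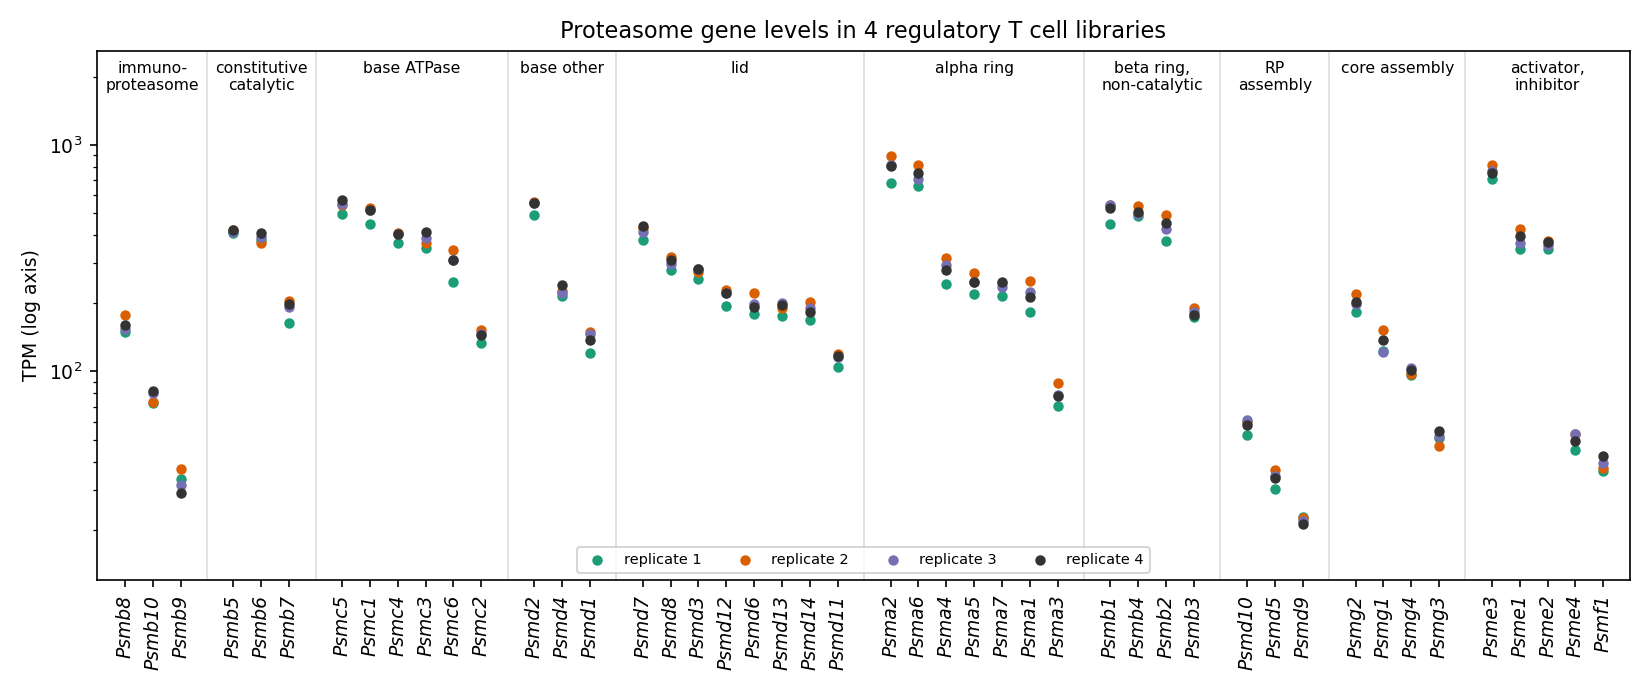
TPM on a log axis of 46 proteasome genes in each of the 4 regulatory T cell libraries, grouped by role; each point is 1 library and RP stands for regulatory particle. Psma2 at 801 TPM on average and Psme3 at 761 TPM lie at the top, and Psmd9 at 22.1 TPM at the bottom; Psma8, Psmb11, Psme2b and Psmc3ip are not drawn.

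The first comparison asked how the immunoproteasome catalytic subunits stood against the subunits they replace. Psmb8, which takes the place of Psmb5 and has chymotrypsin-like activity, was at 149, 178, 154 and 160 TPM in replicates 1 to 4. Psmb5 was at 408, 422, 414 and 421 TPM. Every library of Psmb8 was below every library of Psmb5, and the groups of values did not overlap. The means were 161 ± 12.6 TPM for Psmb8 and 416 ± 6.58 TPM for Psmb5 (SD, n = 4), a log2 ratio of -1.38 ± 0.09, or 2.60-fold lower for Psmb8.

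The gap was widest for Psmb9, the immunoproteasome partner of the caspase-like subunit Psmb6. Psmb9 was at 33.4, 37.1, 31.5 and 28.9 TPM in replicates 1 to 4. Psmb6 was at 382, 368, 392 and 407 TPM. Psmb9 was the lowest of the 6 catalytic genes in all 4 libraries on this length, and with principal transcript lengths it was at 63.8 ± 7.69 TPM beside Psmb10 at 72.0 ± 3.09 TPM (SD, n = 4). The means were 32.7 ± 3.43 TPM for Psmb9 and 387 ± 16.3 TPM for Psmb6 (SD, n = 4), a log2 ratio of -3.57 ± 0.21, or 11.9-fold lower for Psmb9. Psmb9 lies at chr17:34181988-34187764 beside Psmb8 at chr17:34197721-34201454 in the mm10 coordinates of the tables, in the MHC region, and 9956 bases separate them. Psmb9 stood at 0.204 ± 0.0178 of the TPM of Psmb8, and at 0.329 ± 0.0287 with principal transcript lengths (SD, n = 4).

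Psmb10, which takes the place of the trypsin-like subunit Psmb7, was at 72.7, 73.5, 80.0 and 82.0 TPM in replicates 1 to 4. Psmb7 was at 163, 205, 192 and 198 TPM. The values of Psmb10 did not overlap those of Psmb7. Psmb7 was the lowest constitutive catalytic gene on this length only: with principal transcript lengths Psmb5 was lowest at 299 TPM, and Psmb7 was at 401 TPM. The means were 77.0 ± 4.65 TPM for Psmb10 and 190 ± 18.4 TPM for Psmb7 (SD, n = 4), a log2 ratio of -1.30 ± 0.13, or 2.45-fold lower for Psmb10.

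In each of the 3 pairs the immunoproteasome gene was lower in 4 of 4 libraries. Flipping the signs of the 4 within-library differences, an exact two-sided permutation test, gave p = 0.125 for each pair, also after Benjamini-Hochberg adjustment over the 3 pairs, which is the smallest p this design allows. As a share of the summed TPM of each pair, the immunoproteasome gene made up 27.8 ± 1.30% with Psmb5, 7.82 ± 1.06% with Psmb6 and 29.0 ± 1.87% with Psmb7 (SD, n = 4). These shares rest on gene length: with the length of the principal transcript they were 39.3 ± 1.53%, 8.91 ± 1.19% and 15.3 ± 1.16%. Psmb8 was below Psmb5 only per length, since its fragments outnumbered those of Psmb5 by 0.28 on the log2 scale. The longest run of bases shared between annotated transcripts was 18 bases for Psmb8 and Psmb5, 11 for Psmb9 and Psmb6 and 15 for Psmb10 and Psmb7.

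**Figure D2:**
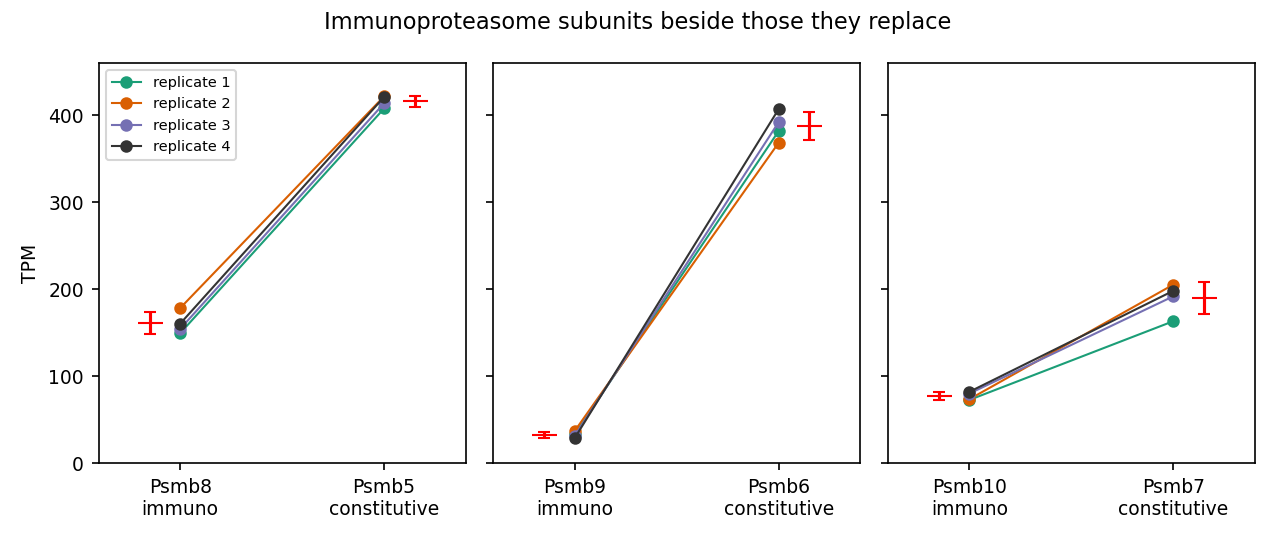
TPM of each immunoproteasome catalytic gene on the left of its panel and of the constitutive gene it replaces on the right, with 1 line per library; red bars are the mean ± SD of 4 libraries. The immunoproteasome gene is lower in every library, and the widest gap is between Psmb9 at 32.7 TPM and Psmb6 at 387 TPM.

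Among regulatory particle subunits the base ATPases ranged from Psmc2 at 144 ± 8.10 TPM to Psmc5 at 539 ± 30.9 TPM (SD, n = 4). Psmc5 was at 496, 542, 549 and 569 TPM in replicates 1 to 4. Psmc2 was at 133, 153, 146 and 144 TPM. All values of Psmc5 lay above all values of Psmc2, and both were lowest in replicate 1. With principal transcript lengths the ends of this group were other genes, Psmc6 at 217 TPM and Psmc3 at 435 TPM, and the range narrowed to 2.01-fold, against 3.74-fold. Of the other base subunits, the scaffold protein Psmd2 was at 490, 557, 555 and 555 TPM. Psmd1, the other large scaffold, was at 121, 149, 146 and 138 TPM. Psmd4, which binds ubiquitin chains, lay between them at 226 ± 11.7 TPM (SD, n = 4).

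In the lid, Psmd7 was the highest at 379, 428, 413 and 441 TPM in replicates 1 to 4, and Psmd11 the lowest at 105, 119, 115 and 117 TPM. With principal transcript lengths Psmd11 was still the lowest by its mean, but Psmd3 at 456 TPM and Psmd8 at 432 TPM lay above Psmd7 at 426 TPM. Psmd7 is the inactive partner of the deubiquitinating subunit Psmd14, and Psmd14 was at 186 ± 14.6 TPM (SD, n = 4). The assembly chaperones of the regulatory particle were low beside the subunits they help to assemble. Psmd9 was at 22.8, 22.5, 21.9 and 21.3 TPM, Psmd5 averaged 33.8 ± 2.58 TPM and Psmd10 was at 52.4, 59.7, 61.2 and 58.1 TPM. None of the 3 overlapped the lowest base or lid subunit in any library. Their own order depended on length, since with principal transcript lengths they lay between 39.9 TPM for Psmd5 and 44.5 TPM for Psmd9.

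The core alpha ring spanned the widest range of the ring and particle subunit groups, although its 7 subunits are present in equal number in each ring. Psma2 was at 681, 894, 818 and 810 TPM in replicates 1 to 4. Psma3 was at 70.2, 89.3, 78.9 and 77.6 TPM. The ratio of their means was 10.1, and with principal transcript lengths Psma6 was the highest, 8.04-fold above Psma3. Psma2 kept its exon union length of 944 bp there, since its principal transcript of 2911 bp is longer. With the longest protein-coding transcript length Psma2 averaged only 197 TPM, and Psma6 659 TPM. With exon union lengths Psma6 was close behind Psma2 at 733 ± 67.0 TPM, and the other 4 lay between 218 TPM for Psma1 and 283 TPM for Psma4. In the non-catalytic beta ring, Psmb1 was highest at 449, 541, 543 and 526 TPM and Psmb3 lowest at 174, 190, 182 and 178 TPM. With principal transcript lengths this order turned: Psmb1 was lowest at 369 TPM, Psmb3 was at 391 TPM and Psmb4 was highest at 598 TPM. Psmb1 kept its exon union length of 1036 bp there, since its principal transcript of 1758 bp is longer.

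The core assembly chaperones act as the pairs Psmg1 with Psmg2 and Psmg3 with Psmg4. Psmg2 was highest at 183, 220, 199 and 202 TPM in replicates 1 to 4, Psmg1 averaged 134 ± 14.2 TPM and Psmg4 99.7 ± 3.26 TPM (SD, n = 4). Psmg3 was lowest at 50.8, 46.7, 51.9 and 54.6 TPM, and 280 bp of its exons are shared with another gene on the same strand, where reads were not counted. With principal transcript lengths Psmg3 was at 120 TPM and Psmg4 was the lowest at 71.7 TPM. Psmb5, Psmd1 and Psme2b also share such exon bases, 109, 301 and 41 bp.

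Of the alternative caps, Psme3, which forms a nuclear activator ring, was the highest at 708, 817, 767 and 750 TPM in replicates 1 to 4. Psme1 and Psme2, whose products form the interferon-inducible activator ring together, averaged 384 ± 34.7 and 364 ± 13.8 TPM (SD, n = 4). These neighbours on chromosome 14 stood at a ratio of 1.05 ± 0.0572, with values of 1.00, 1.13, 1.02 and 1.06 in replicates 1 to 4. The large activator Psme4 averaged 50.1 ± 3.85 TPM. Psmf1, a core inhibitor, was at 36.2, 37.7, 39.6 and 42.2 TPM, the lowest of this group in every library on this length. With principal transcript lengths Psmf1 was at 47.3 ± 2.08 TPM and Psme4 at 46.4 ± 2.13 TPM (SD, n = 4).

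Psme2b was at 10.9, 11.9, 12.004 and 9.06 TPM in replicates 1 to 4. Its transcript shares a run of 341 bases with Psme2, and reads that mapped to both places were not counted, so its level and part of that of Psme2 are uncertain. Psma8, a core variant of the testis, had 21, 0, 6 and 9 fragments in replicates 1 to 4. Psmb11, the catalytic subunit of thymic cortical epithelium, had no fragment in any library, which allows up to 3 fragments per library or 0.0256 to 0.0584 TPM; it lies 7314 bases from Psmb5. Psmc3ip averaged 49.7 ± 2.79 TPM (SD, n = 4). The counted pseudogenes of catalytic subunits were near 0: over the 4 libraries Psmb7-ps2 had 30 fragments, Psmb6-ps2 13, Psmb5-ps 1 and Psmb6-ps 0. Reads that mapped to both a pseudogene and its parent gene were not counted. These counts therefore cannot show how many reads such pairs share.

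Levels of roles were compared as the log2 ratio of median TPM within each library. A median of 3 genes is the level of 1 gene. With exon union lengths it was Psmb10 for the immunoproteasome and Psmb6 for the constitutive catalytic subunits in each library. The immunoproteasome median lay below that of the constitutive catalytic subunits by a log2 ratio of -2.33 ± 0.04 and below that of the core alpha ring by -1.68 ± 0.14 (SD, n = 4). The lid lay below the alpha ring by -0.25 ± 0.02. The base lay above the alpha ring by 0.62 ± 0.12, but with principal transcript lengths this ratio was -0.19, so which of the base and the alpha ring is higher depends on the length used. Over 49 members with a level above 0, 29 were higher with the principal transcript length. The largest move was 2.41-fold upward for Psma7, the lowest ratio was 0.717 for Psmc6, and 13 moved by more than 1.5-fold. These moves mix the change of length with a new total over protein-coding genes. Psmc6 kept its exon union length, since its principal transcript is longer, so its ratio reflects the new total alone. The same holds for Psma2, Psmb1 and Psmc1, whose principal transcripts are also longer.

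**Figure D3:**
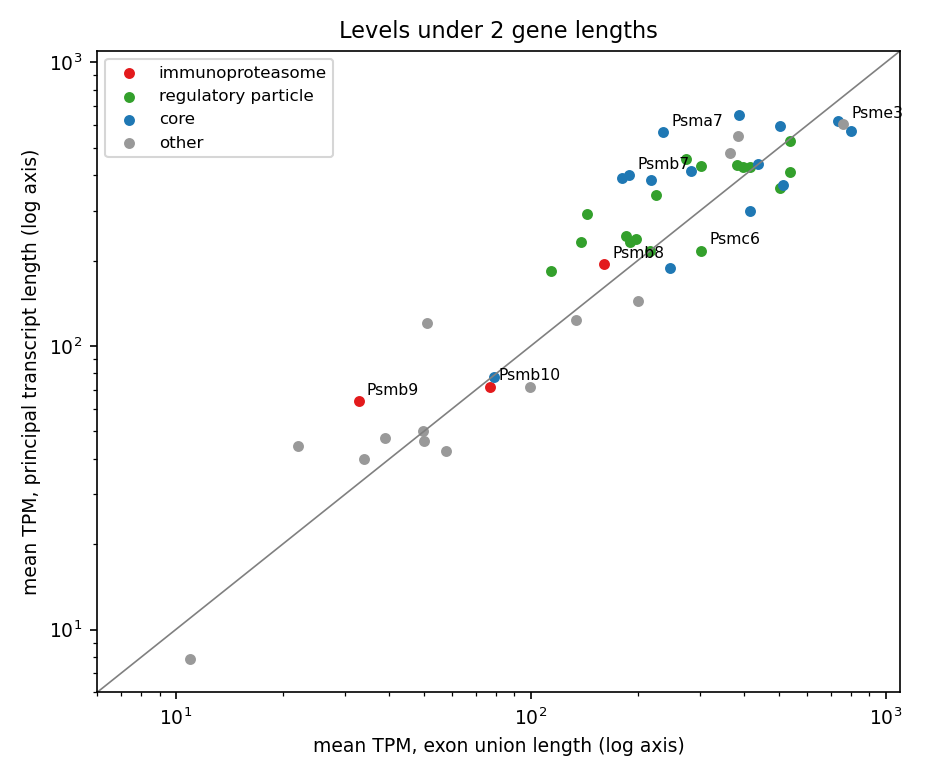
Mean TPM over the 4 libraries of 48 members, with exon union length on the x axis and principal transcript length on the y axis. Both axes are log, the line marks equal values, and Psma8 and Psmb11 are not drawn. The category other holds chaperones, activators, the inhibitor, Psme2b and Psmc3ip. The y axis is scaled over protein-coding genes and keeps the exon union length where the principal transcript is longer. Psma7 lies farthest above the line at a ratio of 2.41. Psmc6 lies farthest below it at 0.717, at nearly the same distance as other genes that kept their exon union length. The 3 immunoproteasome genes stay below most core genes.

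The second comparison asked whether any member varied between libraries beyond genes of like abundance. By edgeR's quasi-likelihood dispersion test, 0 of 48 members tested had a Benjamini-Hochberg adjusted p under 0.05, against 0.468% of 12396 genes. At an unadjusted p under 0.05 there were 2 members, or 4.17%, against 5.33% of all genes. DESeq2's dispersion outlier flag also called 0 members, against 60 of 12396 genes. The 2 were the ATPase Psmc6 (edgeR adjusted p = 0.871), at 248, 343, 310 and 310 TPM in replicates 1 to 4, and the alpha ring gene Psma1 (edgeR adjusted p = 0.931), at 183, 251, 224 and 214 TPM. Both were lowest in replicate 1 and highest in replicate 2.

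The coefficient of variation of TPM had a median of 6.68% over the 48 members, against 8.44% over protein-coding genes tested and 7.22% over the 7866 of these with at least 10 TPM. It ran from 1.58% for Psmb5 to 13.05% for Psmc6. TPM was lowest in replicate 1 for 42 of 48 members, or 87.5%, against 54.0% of protein-coding genes tested. This is the library with the low protein-coding share. After TMM scaling, which sets library totals by the bulk of genes, 19 members, or 39.6%, were lowest in replicate 1, against 28.6% of protein-coding genes, and as many were lowest in replicate 3, against 21.4%.

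Replicate 2 stood out on both scales. TPM was highest there for 30 of 48 members, or 62.5%, against 28.7% of protein-coding genes tested, and the TMM-scaled level for 31 members, or 64.6%, against 28.4%. The sizes were small: the median log2 deviation from a gene's own mean over the 4 libraries was, over the members, 0.06 in replicate 2, 0.02 in replicate 4 and -0.03 in both replicates 1 and 3. By role, the median deviation in replicate 2 was 0.13 for the immunoproteasome, 0.05 for the lid, 0.14 for the alpha ring and 0.00 for the constitutive catalytic subunits. Within both groups of 3 the genes went both ways: it was 0.13 for Psmb8, 0.17 for Psmb9 and -0.09 for Psmb10, and 0.00 for Psmb5, -0.09 for Psmb6 and 0.10 for Psmb7. In the alpha ring 6 of 7 genes had their highest TPM in replicate 2 and 7 of 7 their lowest in replicate 1. Highest in replicate 2 were also 5 of 8 lid genes, 4 of 6 base ATPases and 3 of 4 non-catalytic beta ring genes. Every gene of those groups had its lowest TPM in replicate 1. In each catalytic group 2 of 3 genes were highest in replicate 2 and 2 of 3 lowest in replicate 1. The members share their libraries, so they are not independent of each other, and the part of library differences in this pattern was not tested.

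**Figure D4:**
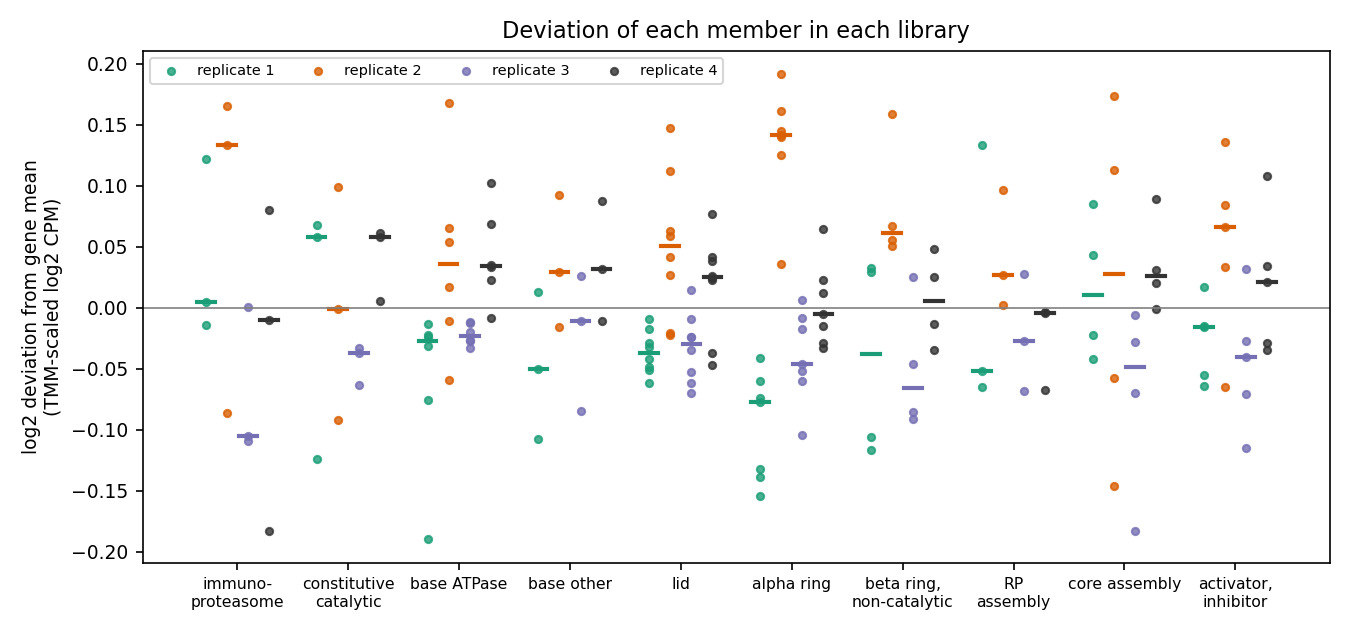
Log2 deviation of each member's TMM-scaled level from its own mean over the 4 libraries, by role and library; each point is a gene, horizontal bars are medians and RP stands for regulatory particle. Replicate 2 lies above 0 for the alpha ring with a median of 0.14, while the constitutive catalytic subunits have a median of 0.00 there.

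The wider pathway was read from a list of 32 genes outside the name pattern, of which 31 were measured and 29 were tested. Of those tested, edgeR called 1 as varying between libraries, against 0.468% of 12396 genes. The exception was Ube3c, a ubiquitin ligase that binds the proteasome, at 28.7, 32.5, 21.2 and 30.9 TPM in replicates 1 to 4 (edgeR adjusted p = 0.0222). It was lowest in replicate 3, without which it was not called; over the alternatives its adjusted p was between 2.38e-05 and 0.995. Of the 31 genes, 29 had at least 10 TPM, against 36.2% of protein-coding rows, and the median was 69.2 TPM.

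Subunits and assembly factors named outside the pattern lay between Ecpas, which holds the core to the regulatory particle, at 48.8 TPM and the ubiquitin receptor Adrm1 at 100.1 TPM, with the core maturation factor Pomp at 88.5 TPM. The proteasome-bound deubiquitinases Uchl5 and Usp14 were at 122 and 73.4 TPM. Rps27a was the highest of the ubiquitin genes at 835 TPM, and of the ubiquitin-activating enzymes Uba1 was at 1154 TPM and Uba6 at 29.9 TPM. Substrate shuttles and unfoldases ranged up to the ATPase Vcp at 316 TPM, and Ddi1 had no fragment. Of the transcription factors known to act on proteasome genes, Nfe2l1 was highest at 110 TPM and Nfe2l3 had no fragment. Those linked to interferon and the immunoproteasome included Irf1 at 15.2 TPM and Nlrc5, a regulator of MHC class I genes, at 14.1 TPM. Nlrc5 was at 17.4, 13.3, 13.6 and 11.95 TPM in replicates 1 to 4 and was not called as varying by edgeR (adjusted p = 0.152), although it was without replicate 2 (adjusted p = 0.00461) and with no filter on low counts (adjusted p = 0.0412); over all alternatives its adjusted p reached 0.997.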

How the data were processed

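RNA-seq of 4 mouse regulatory T cell libraries was used, grouped and numbered as in the labels. The authors deposited raw fragment counts per gene, made with featureCounts 1.4.6-p4 per the file headers. Pairs mapped at both ends were counted over exons of GENCODE mouse release 13 on mm10, with strand setting 2, per the same headers. Reads mapping to several places or overlapping 2 genes were not counted, per the command lines in the file headers. An aligner version was not stated in those headers. The deposited tables also give each gene's exon union length in bp. Names and types came from GENCODE mouse release 21, which matched 50376 of 50600 IDs.

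TPM was computed from the deposited counts and lengths. The variability test used edgeR 4.0.16 under R 4.3.3 (TMM after filterByExpr, an intercept-only robust quasi-likelihood fit, the upper tail of the F distribution, Benjamini-Hochberg at 0.05 over 12396 genes), with DESeq2 1.42.0 as an alternative. On simulated data for 12396 genes this test recovered 19 of 50 genes changed 1.5-fold in 1 library and 36 of 50 changed 2-fold. No pair of libraries was a duplicate: chi-square over its degrees of freedom was 12.2 to 137 for 6 pairs. A count of 0 allows up to 3 fragments, 0.0322 to 0.0777 CPM per library, and such floors cover counting error only.

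Any member could be named. Values per library are given for the catalytic subunits and for the highest and lowest member of each role; Psmc1, Psmc4, Psmc6 and Psma1 were added after their values were seen. In the pathway list, the highest and lowest gene of each group were to be named, with any gene called. This was followed except for 1 lowest gene, which is not reported here, and Pomp, Usp14, Irf1 and Nlrc5 were added. Paaf1 of that list was not analysed here. Members, lists and motifs were chosen with earlier results of these data known. Promoter windows came from RefSeq, 250 bases before the start, searched on both strands.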

Additional observations from a re-analysis of the deposited data

Results flagged for a closer look

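Of 56 values tested over the 4 libraries, 4 had a library far from the others, and chance flags about 1 in 20. The measure is the gap of the outermost library to its nearest neighbour, divided by the whole range, above Dixon's critical value for 4 samples. Replicate 1 was low in TPM for the scaffold subunit Psmd2 (0.961) and for the base ATPases Psmc4 (0.935) and Psmc1 (0.860). Psmc4 was at 370, 407, 405 and 406 TPM in replicates 1 to 4, and Psmc1 at 448, 528, 517 and 517 TPM. The protein-coding share of TPM was 88.2% in replicate 1, and the part of this in the low values was not tested. The log2 ratio of the immunoproteasome median over the core alpha ring median was lowest in replicate 2 at -1.89 (0.889). It was -1.60, -1.63 and -1.60 in replicates 1, 3 and 4. The immunoproteasome median was the level of Psmb10 in each library, whereas Psmb8 and Psmb9 had their highest TPM in replicate 2. The ratio over the constitutive catalytic subunits had no such library.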

How the results depend on the processing

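With counts not divided by length, the log2 ratio of Psmb8 over Psmb5 turned to 0.28. With the longest protein-coding transcript length the base over the alpha ring turned to -0.15, and with the principal transcript length, an alternative chosen after seeing the data, to -0.19. Values that moved are given for longest transcript, principal transcript, mean log2(TPM + 1) and mean log2(TPM + 0.1) in that order. Immunoproteasome over alpha ring was -2.39, -2.50, -1.94 and -1.96. Immunoproteasome over constitutive catalytic was -2.46, -2.46, -2.06 and -2.08. Lid over alpha ring was -0.66, -0.76, -0.37 and -0.37. Base over alpha ring was 0.12 and 0.13 with the log means. With FPKM, which is not rescaled to a fixed sum, 16 members reached 100. No member was called as varying under any of the 8 alternatives, and the lowest adjusted p of a member was between 0.714 and 0.920 by edgeR. Over all genes, 110 were called with no filter on low counts, against 58 in the fit as reported, and 37 without replicate 1, 69 without replicate 2, 40 without replicate 3 and 55 without replicate 4. With each library left out in turn, the log2 ratios lay between -1.42 and -1.35 for Psmb8 over Psmb5, -3.65 and -3.49 for Psmb9 over Psmb6, -1.34 and -1.23 for Psmb10 over Psmb7, -1.71 and -1.61 for the immunoproteasome over the alpha ring, -2.34 and -2.31 over the constitutive catalytic subunits, and 0.59 and 0.68 for the base over the alpha ring. No paired comparison of conditions was possible because the labels give 1 group, and the only pairing used was of genes within a library. Depth limits the statements on Psma8 and Psmb11, and gene length the order of genes by level.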
